A study of Mus musculus with 33 samples.

Results

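The genes described are 40 enzymes and carriers of the mouse liver that make urea or break down amino acids, named as a list. Each was followed through its probe set of highest mean on an Affymetrix array among the probe sets carrying that single symbol. A probe set was found for 36 of the 40, out of 18193 genes measured in all. Gls2, Sds, Sdsl and Amt had none and were not analysed here. The study measured total RNA from the livers of mice aged 12 months, all on a mixed FVB/NT, 129S1/Svlmj and C57BL/6NT background. The groups were wild type (wt, 7 arrays), E2f3a knock-out (3aKO, 5 arrays), E2f1 knock-in (1KI, 5 arrays) and E2f3b knock-in (3bKI, 4 arrays). The wt and 3aKO samples were normal liver, and the 1KI and 3bKI samples were hepatocellular carcinomas that had arisen without treatment, so genotype and tumour cannot be told apart in these 2 groups. How the knock-in alleles were built, and whether arrays of a group came from separate animals, is not given in the sources used here, so p-values measure the spread between arrays.

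Hepatocytes are the main site of both processes. In the urea cycle, ammonia and aspartate nitrogen are joined into urea across the mitochondrion and the cytosol, and the cycle is most active in the hepatocytes around the portal vein. The amino acids lose their nitrogen through transaminases, dehydrogenases and other enzymes, at steps that differ between the paths. Their carbon skeletons are cut, mostly in the mitochondrion, to products that feed glucose synthesis, ketone bodies or the citric acid cycle. Inherited loss of many of these enzymes causes disease, among them tyrosinaemia, the organic acidurias and the urea cycle disorders. E2f1, E2f3a and E2f3b are transcription factors best known for control of the cell cycle.

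The wt and 3aKO arrays appeared in 2 normalization runs by the authors, run 1 with the 1KI arrays and run 2 with the 3bKI arrays, and values were compared only within a run. All values below are log2 expression values, levels are given per array, and changes are differences of group means on the log2 scale with a standard error (SE). Array medians lay between 5.48 and 5.53 in run 1 and between 5.34 and 5.43 in run 2. E2f1 ranged from 5.84 to 6.22 in wt and from 5.83 to 6.47 in 1KI. E2f3, the gene that gives both E2f3a and E2f3b, was read by a probe set whose place relative to the deletion is not given in the sources used here, so it does not check the knock-out. It ranged from 6.59 to 7.03 in wt, from 6.42 to 6.88 in 3aKO and from 7.14 to 7.81 in 1KI, and in run 2 from 6.42 to 6.93 in wt, from 6.25 to 6.74 in 3aKO and from 6.58 to 7.01 in 3bKI. The summed level of 7 hepatocyte markers lay between 17.04 and 17.34 on all 33 columns. Sex, read from Xist and Y-linked genes since the labels give none, was female on 3 and male on 4 wt arrays, female on 3 and male on 2 3aKO arrays, and female on replicates 1 and 5 and male on replicates 2, 3 and 4 of 1KI. Of the 3bKI arrays, 3 were female and replicate 2 was unclear.

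Promoter windows of 300 bases, from 250 bases before to 50 after the start of the gene, were found in RefSeq (GRCm38.p6) for 31 of the 36 genes. Those of 6 genes that the results below turn on are shown, 5′ to 3′ on the strand of the gene. Ivd, Aass and Pccb had the lowest p in 3bKI against wt, Prodh had the most negative changes in the tumours, Hgd had the lowest p in 3aKO against wt, and Glud1 had the smallest change in 3bKI against 3aKO. Capitals mark matches to the motifs searched, and a window in lower case throughout held none.
Ivd (chr2:118861744-118862043, plus strand): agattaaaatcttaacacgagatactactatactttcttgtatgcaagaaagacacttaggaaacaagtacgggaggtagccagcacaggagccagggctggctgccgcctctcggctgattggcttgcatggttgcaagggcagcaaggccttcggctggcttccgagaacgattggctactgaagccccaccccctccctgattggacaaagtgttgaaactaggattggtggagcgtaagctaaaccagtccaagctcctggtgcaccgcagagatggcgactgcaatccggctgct
Aass (chr6:23132937-23133236, minus strand): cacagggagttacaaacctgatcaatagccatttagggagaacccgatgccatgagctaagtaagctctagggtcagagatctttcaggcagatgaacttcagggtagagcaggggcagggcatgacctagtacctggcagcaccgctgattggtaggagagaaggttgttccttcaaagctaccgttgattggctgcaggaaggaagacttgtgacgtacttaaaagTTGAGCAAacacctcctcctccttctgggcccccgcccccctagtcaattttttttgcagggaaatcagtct
Pccb (chr9:101034835-101035134, minus strand): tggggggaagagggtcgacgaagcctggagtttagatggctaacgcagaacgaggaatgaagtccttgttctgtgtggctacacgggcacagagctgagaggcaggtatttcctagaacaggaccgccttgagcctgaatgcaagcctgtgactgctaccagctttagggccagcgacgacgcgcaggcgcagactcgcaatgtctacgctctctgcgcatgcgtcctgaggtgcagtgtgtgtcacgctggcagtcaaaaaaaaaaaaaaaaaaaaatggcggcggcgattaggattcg
Prodh (chr16:18089141-18089440, minus strand): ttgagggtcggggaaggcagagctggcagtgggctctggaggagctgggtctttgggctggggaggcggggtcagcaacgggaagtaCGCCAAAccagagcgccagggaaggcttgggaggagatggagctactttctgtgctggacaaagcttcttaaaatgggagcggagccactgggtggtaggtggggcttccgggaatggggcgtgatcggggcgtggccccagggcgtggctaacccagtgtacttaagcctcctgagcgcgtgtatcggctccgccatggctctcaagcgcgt
Hgd (chr16:37579903-37580202, plus strand): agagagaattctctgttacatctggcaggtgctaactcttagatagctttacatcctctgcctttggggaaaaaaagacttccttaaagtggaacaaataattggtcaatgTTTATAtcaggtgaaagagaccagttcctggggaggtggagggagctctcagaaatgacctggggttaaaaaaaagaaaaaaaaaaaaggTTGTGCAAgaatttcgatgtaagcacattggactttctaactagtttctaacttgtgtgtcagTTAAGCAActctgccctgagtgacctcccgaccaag
Glud1 (chr14:34310477-34310776, plus strand): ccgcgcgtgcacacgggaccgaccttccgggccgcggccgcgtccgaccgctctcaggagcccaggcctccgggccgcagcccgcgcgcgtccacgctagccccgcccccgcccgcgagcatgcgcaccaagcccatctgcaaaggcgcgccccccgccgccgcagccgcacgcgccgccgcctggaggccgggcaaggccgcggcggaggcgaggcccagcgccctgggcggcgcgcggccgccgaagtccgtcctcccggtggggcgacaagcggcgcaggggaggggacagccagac

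The motifs were searched on both strands as plain letters: TATAAA for the TATA box, any of the words TTTCCCG and also TTTCGCG, then TTTGCCG and lastly TTTGGCG for E2F, the word CAAAGTC for HNF4, the word TTGCNNAA for C/EBP and the word GTTAAT for HNF1. The E2F letters were in the windows of 2 of the 31 genes, Prodh and Pcca, a share of 6.45% beside 6.85% of 27025 promoter windows of the genome. In Prodh the match began at position -163 from the start of the gene, and in Aass the C/EBP match began at position -22. The C/EBP letters were in 5 of the 31 (Hgd, Aass, Gcdh, Prodh2 and Hal), or 16.1% beside 10.8% of all windows. The TATA box letters were in 3 of the 31 (9.68% beside 14.2%), the HNF1 letters in 2 (6.45% beside 7.20%) and the HNF4 letters in none (4.36% of all windows). The ratio of observed to expected CpG had a median of 0.43 over the 31 windows and 0.39 over all windows, and it ranged widely among the genes shown, from 0.16 in Hgd and 0.26 in Aass to 0.93 in Pccb and 1.04 in Glud1.

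In the 3bKI tumours these genes were lower as a list. Against wt, 5 of the 36 genes fell (limma, adjusted p under 0.05 over all genes) and none rose, while 0.978% of all genes fell and 1.09% rose. The change was below 0 for 35 of the 36, beside 46.9% of all genes, and its median was -0.29, beside 0.01 over all genes. Against 3aKO, 16 of the 36 fell and none rose, while 6.27% of all genes fell and 2.92% rose. All 36 changes were below 0, beside 45.3% of all genes, with a median of -0.47 beside 0.03. On every array all 36 genes read above the array median, and brighter genes fell more often than all genes. With the dimmest 40% of genes left out, 215 of 10916 genes fell and 155 rose against wt, with a median of -0.04. Against 3aKO, 1341 of these genes fell and 389 rose, with a median of -0.08. On 19 of the 36 genes every 3bKI array lay below every 3aKO array (8.95% of all genes), and on 4 every 3bKI array lay below every wt array (2.38% of all genes). The calls depended on the scaling and on the arrays used. Quantile normalization left 2 and 7 genes called. A fit with sex, which also drops 3bKI replicate 2, left 0 and 2 (Aass and Ivd), while dropping that array alone left 1 and 11. Leaving out 1 array gave 0 to 6 called genes against wt, with 0 without wt replicate 1 or without 3bKI replicate 3, and 6 to 17 against 3aKO, with 6 without 3bKI replicate 3. Over all genes, 199 rose and 178 fell against wt, and 531 rose and 1140 fell against 3aKO, while with each array centred on its median 197 rose and 548 fell, and 328 rose and 1638 fell. The 2 comparisons share the 3bKI arrays.

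In the 1KI tumours and in 3aKO livers no gene of the list passed the test. For 1KI against wt, 35 of the 36 changes were below 0 with a median of -0.30, beside 56.7% and -0.03 over all genes. At an unadjusted p under 0.05 there were 9 of the 36, beside 19.0% of all genes, and after adjustment 0 of the 36, beside 0.209% of all genes that rose and 0.0330% that fell. For 1KI against 3aKO, 35 of the 36 were below 0 with a median of -0.49, beside 54.7% and -0.02 over all genes, and 18 had an unadjusted p under 0.05, beside 14.0%. No gene of the array was called in that comparison (percent called 0). For 3aKO against wt, 32 of the 36 were above 0 with a median of 0.17, beside 50.5% and 0.002 over all genes. Here 8 had an unadjusted p under 0.05, beside 7.46%, and again no gene of the array was called (percent called 0). In tissue samples such as these, fewer cells of a type and less RNA per cell cannot be told apart.

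**Figure D1:**
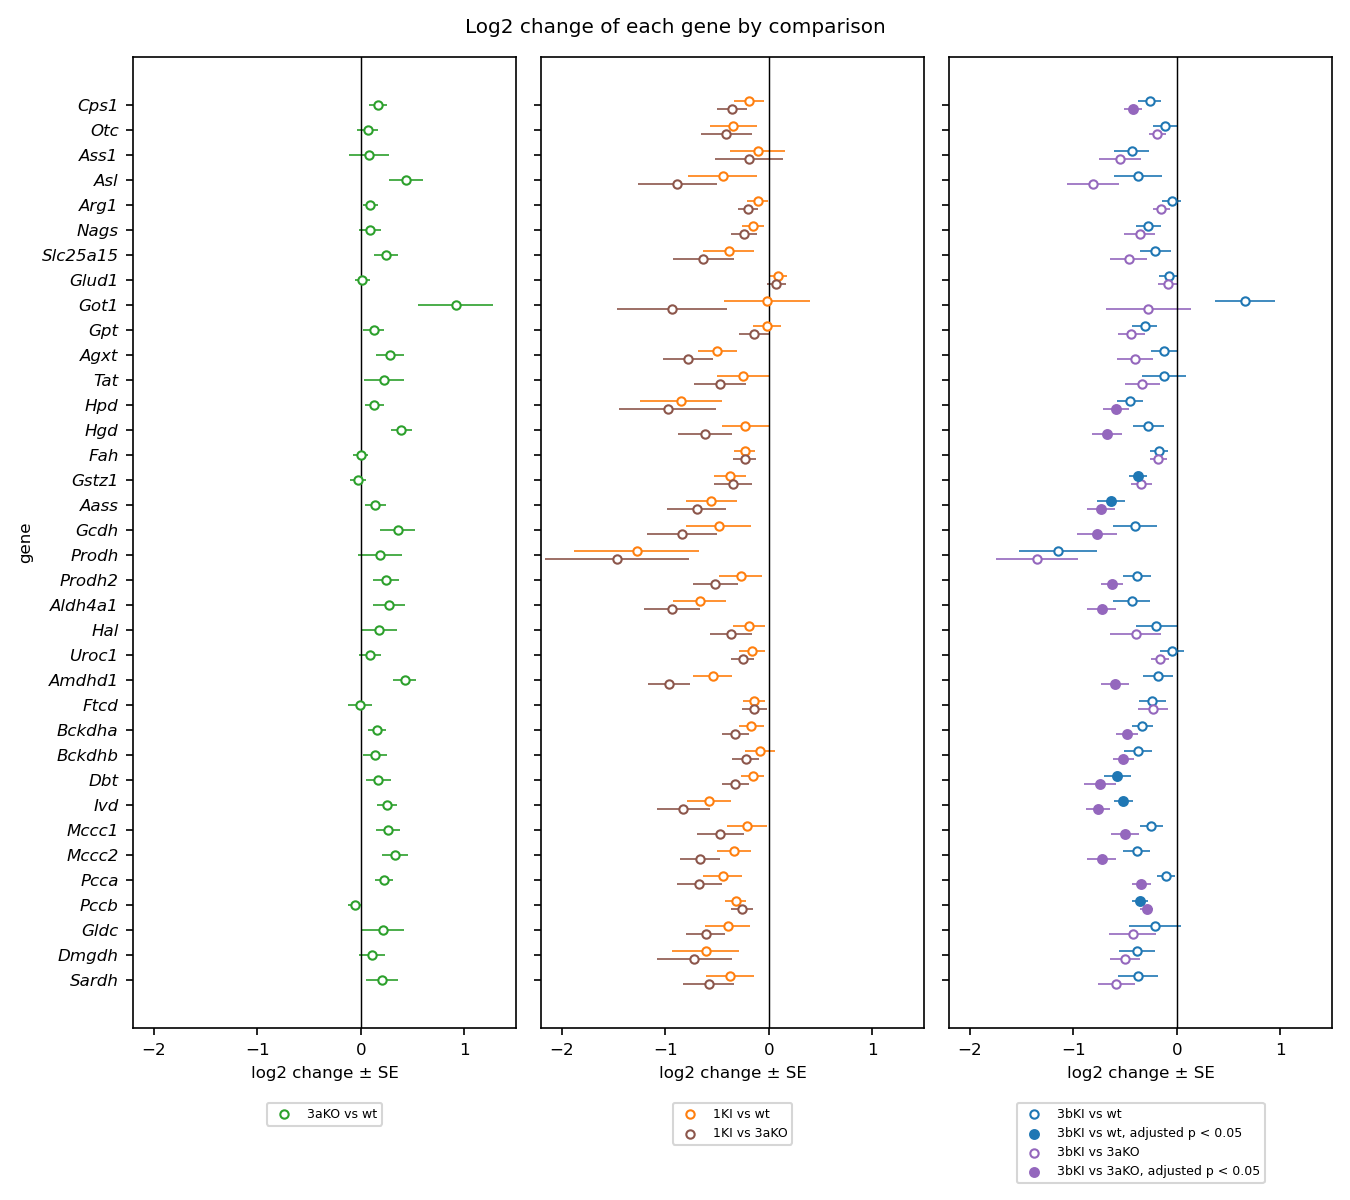
Log2 change and SE of each of the 36 genes, in role order from top to bottom, for 3aKO against wt (left), 1KI against wt and 3aKO (middle) and 3bKI against wt and 3aKO (right). Filled points passed limma's test at an adjusted p under 0.05, which only the right panel holds: 5 genes against wt and 16 against 3aKO, all to the left of 0.

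Of the 7 genes of the urea cycle 1 was called, in 1 comparison, by the probe set followed for each. In 3bKI against 3aKO their changes ran from -0.81 in Asl to -0.15 in Arg1, with a median of -0.43. Cps1, which makes the carbamoyl phosphate that brings ammonia into the cycle, read 13.32, 13.38, 13.34 and 13.66 in 3bKI and 13.85, 13.84, 13.84, 13.81 and 13.91 in 3aKO, and it ranged from 13.41 to 14.02 in wt with a median of 13.63. All 4 tumours lay below the 3aKO livers, and they overlapped wt. It fell by 0.43 ± 0.09 against 3aKO on the log2 scale (adjusted p = 0.0215), and its change against wt was -0.26 ± 0.11 (adjusted p = 0.211). In 1KI it read 13.88, 13.59, 13.21, 13.15 and 13.85, with replicates 3 and 4 below the wt range of run 1 (13.47 to 14.05, median 13.69).

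Asl, which splits argininosuccinate into arginine and fumarate, spread the most of the 7 in the tumours. It read 11.65, 10.57, 11.35 and 11.91 in 3bKI, 12.65, 11.95, 12.13, 11.94 and 12.24 in 3aKO, and from 11.38 to 12.11 in wt (median 11.76). Every 3bKI array was below every 3aKO array, and the change of -0.81 ± 0.25 did not pass the test (adjusted p = 0.0697). In 1KI it read 12.21, 11.33, 10.94, 10.09 and 12.33 against a wt range of 11.45 to 12.23 (median 11.83). Replicate 1 was near the top of the wt range, replicate 5 was above it, and the other 3 were below it. Its change was -0.45 ± 0.33 against wt (adjusted p = 0.459), and in 3aKO against wt it was 0.44 ± 0.16 (adjusted p = 0.641).

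Slc25a15, the carrier that exchanges ornithine and citrulline across the inner mitochondrial membrane, read 12.04, 11.88, 11.22, 10.61 and 12.39 in 1KI, against 11.81 to 12.24 in wt (median 11.99) and 12.57, 12.32, 12.24, 11.87 and 12.29 in 3aKO. Replicates 3 and 4 of 1KI stood below all others. In 3bKI it read 11.83, 11.24, 11.59 and 12.11, against 11.68 to 12.11 in wt (median 11.89), and the groups overlapped. Otc, which joins carbamoyl phosphate to ornithine, read 12.86, 12.87, 12.24, 11.46 and 12.87 in 1KI, against 12.40 to 13.05 in wt (median 12.87) and 12.92, 12.77, 12.81, 12.88 and 12.96 in 3aKO. The same 2 arrays were low again, and the other 3 were at the wt median. Its 3bKI values of 12.78, 12.52, 12.60 and 12.68 lay inside the wt range of 12.37 to 13.02 (median 12.83). A dimmer Otc probe set, tested among all probe sets, changed by -0.42 ± 0.12 against wt and -0.61 ± 0.13 against 3aKO in 3bKI. Only the latter passed the threshold (limma, adjusted p = 0.0895 and 0.0212). A further Otc probe set changed by -0.11 ± 0.17 and -0.07 ± 0.12.

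Arg1, which releases urea from arginine, had the smallest change of the 7 in both 3bKI comparisons and in 1KI against wt. It read 13.26, 13.51, 13.40 and 13.49 in 3bKI, against 13.29 to 13.73 in wt (median 13.46) and 13.61, 13.59, 13.49, 13.50 and 13.63 in 3aKO. In 1KI it read 13.59, 13.34, 13.09, 13.40 and 13.58, against 13.34 to 13.74 in wt (median 13.52), with replicate 3 the lowest. Its changes ran from -0.20 ± 0.10 in 1KI against 3aKO to 0.09 ± 0.07 in 3aKO against wt. Nags, which makes the N-acetylglutamate that Cps1 needs, read 9.78, 9.89, 9.38 and 10.01 in 3bKI, against 9.85 to 10.30 in wt (median 9.99) and 10.26, 10.38, 9.95, 9.84 and 10.20 in 3aKO. Replicate 3 was the lowest, and the groups overlapped. In 1KI, Nags ranged from 9.68 in replicate 3 to 10.20 in replicate 5, with 10.12 in replicates 1 and 2, against 9.98 to 10.46 in wt (median 10.15).

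Ass1, which joins citrulline to aspartate, was followed through its only probe set with a single symbol. Another probe set carries 2 symbols, Gm5424 and Ass1, and was not used. The single-symbol probe set read 6.59, 6.72, 6.13 and 6.46 in 3bKI, against 6.35 to 7.28 in wt (median 6.87) and 6.96, 6.80, 7.07, 6.62 and 7.68 in 3aKO. In 1KI it read 7.60, 7.42, 6.31, 6.18 and 7.60, against 6.62 to 7.52 in wt (median 7.14). Replicates 1 and 5 lay above the wt range and replicates 3 and 4 below it.

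Among the enzymes that move nitrogen, Glud1, the mitochondrial glutamate dehydrogenase, had the smallest change of the list in 3bKI against 3aKO, at -0.09 ± 0.09. It read 13.42, 13.37, 13.70, 13.41 and 13.28 in 1KI and 13.21, 13.41, 13.07 and 13.18 in 3bKI, against wt ranges of 13.17 to 13.52 (median 13.37) and 13.11 to 13.51 (median 13.30). It was the only gene of the list above wt in 1KI, at 0.09 ± 0.09, and replicate 3, which was low for most of the list, was the highest array for Glud1. A second bright Glud1 probe set changed more in 3bKI, by -0.21 ± 0.09 against 3aKO and -0.19 ± 0.13 against wt. In 1KI against wt its change was 0.05 ± 0.12. Of the 3 transaminases none was called. Gpt, the alanine transaminase, read 12.01, 11.79, 11.58 and 12.11 in 3bKI, all below the 3aKO values of 12.27, 12.23, 12.19, 12.22 and 12.63, with a change of -0.44 ± 0.13 (adjusted p = 0.0613). Agxt, which uses alanine to detoxify glyoxylate, had a difference of -0.50 ± 0.19 in 1KI relative to wt (adjusted p = 0.198), which did not pass the test. It was 0.14 ± 0.15 among females and -0.94 ± 0.13 among males (adjusted p = 0.738 and 0.0699).

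Got1, the cytosolic aspartate transaminase, was the exception to the direction of the list and separated by sex. In wt it read 12.05, 11.45 and 11.85 in the 3 females and 10.52, 10.72, 11.11 and 10.97 in the 4 males. Females were above males in 3aKO too (13.20, 12.62 and 12.15 against 11.95 and 10.86), and in 1KI (12.20 and 12.49 against 10.23, 10.29 and 10.88). Thus its differences between sexes in wt, 3aKO and 1KI were 0.96, 1.25 and 1.87. Its change in 3bKI against wt was 0.66 ± 0.29 (adjusted p = 0.226), the only positive one of the list, and it was 0.02 ± 0.25 among females alone. The largest change of 3aKO against wt was also that of Got1, at 0.92 ± 0.36 (adjusted p = 0.655), and it was 0.87 ± 0.26 among females and 0.58 ± 0.30 among males.

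Tyrosine is broken down by Tat, Hpd, Hgd, Gstz1 and Fah in that order. Hpd, which makes homogentisate, read 13.79, 13.24, 13.48 and 13.78 in 3bKI, against 14.22, 14.04, 14.21, 14.05 and 14.29 in 3aKO and 13.70 to 14.27 in wt (median 14.03). The tumours lay below every 3aKO liver. Hpd fell by 0.59 ± 0.12 against 3aKO (adjusted p = 0.0241), and its change against wt was -0.45 ± 0.13 (adjusted p = 0.0844). Hgd, which opens the ring of homogentisate, read 12.39, 11.88, 12.35 and 12.66 in 3bKI, against 13.16, 12.96, 13.03, 12.74 and 13.06 in 3aKO and 12.19 to 12.88 in wt (median 12.57). It fell by 0.68 ± 0.15 against 3aKO (adjusted p = 0.0275), where the groups did not overlap, and its change against wt was -0.28 ± 0.15 (adjusted p = 0.320). A second, dimmer Hgd probe set changed less, by -0.22 ± 0.14 against 3aKO and -0.06 ± 0.12 against wt, and did not pass the test.

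Gstz1, which turns maleylacetoacetate into fumarylacetoacetate, was the one gene of the list called against wt and not against 3aKO. It read 11.98, 11.67, 11.81 and 11.95 in 3bKI, against 12.03 to 12.31 in wt (median 12.24) and 12.07, 12.05, 12.21, 12.25 and 12.39 in 3aKO. All 4 tumours were below all 12 normal livers. It fell by 0.38 ± 0.08 against wt (adjusted p = 0.0446), and the change against 3aKO was of like size, -0.34 ± 0.10 (adjusted p = 0.0574). Tat, the first and rate-setting step, and Fah, the last one, were not called, and in 3bKI against wt their changes were -0.12 ± 0.22 and -0.17 ± 0.09.

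Hgd was also the gene of lowest p in 3aKO against wt. It read 13.25, 13.03, 13.10, 12.84 and 13.12 in 3aKO and from 12.33 to 12.88 in wt (median 12.67), with only replicate 4 inside the wt range. Its change was 0.39 ± 0.10 (adjusted p = 0.641), and that of the dimmer Hgd probe set was 0.18 ± 0.11. For Hpd the 1KI arrays were the most scattered of the list relative to wt. They read 14.10, 13.74, 12.80, 11.28 and 14.03 against 13.73 to 14.28 in wt (median 14.05), an SD 6.55 times that of wt.

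Both lysine enzymes fell in 3bKI against 3aKO. Aass, whose protein carries out the first 2 steps of mitochondrial lysine breakdown, read 10.89, 10.37, 10.73 and 11.02 in 3bKI, against 11.12 to 11.71 in wt (median 11.35) and 11.50, 11.51, 11.54, 11.23 and 11.65 in 3aKO. No tumour reached the lowest normal liver. Aass fell by 0.64 ± 0.14 against wt (adjusted p = 0.0364), which is 0.643 times the wt level, and by 0.73 ± 0.14 against 3aKO (adjusted p = 0.0179). Gcdh, the glutaryl-CoA dehydrogenase further down the path, read 10.92, 9.93, 10.57 and 10.65 in 3bKI, against 11.10, 11.03, 11.25, 11.56 and 11.48 in 3aKO and 10.11 to 11.14 in wt (median 11.02). It fell by 0.77 ± 0.19 against 3aKO (adjusted p = 0.0386), and its change against wt was -0.41 ± 0.21 (adjusted p = 0.305). The wt range was stretched by replicate 7, the lowest wt array for Gcdh.

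Proline breakdown held the most negative change of the list. Prodh, the mitochondrial proline dehydrogenase, read 10.28, 8.53, 9.50 and 10.84 in 3bKI, against 10.06 to 11.40 in wt (median 10.97) and 10.86, 10.82, 11.29, 11.11 and 11.60 in 3aKO. Replicates 2 and 3 were far below the normal livers, replicate 1 was inside the wt range, and replicate 4 was inside both. Neither its change against wt, -1.15 ± 0.37 with adjusted p = 0.116, nor that against 3aKO, -1.35 ± 0.40 with adjusted p = 0.0591, passed the test. In 1KI it read 11.35, 10.35, 8.43, 7.36 and 11.14, against 10.14 to 11.48 in wt (median 11.04). Replicates 3 and 4 again stood apart, and the change was -1.28 ± 0.60 (adjusted p = 0.267).

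Prodh2, which acts on hydroxyproline, and Aldh4a1, the dehydrogenase that acts after both, were called against 3aKO. Prodh2 read 10.72, 10.70, 10.56 and 10.44 in 3bKI, against 11.20, 10.97, 11.24, 11.34 and 11.42 in 3aKO and 10.57 to 11.26 in wt (median 11.09). The 4 tumours were close together and below all 3aKO livers. It fell by 0.63 ± 0.11 against 3aKO (adjusted p = 0.0145), and against wt the change was -0.38 ± 0.14 (adjusted p = 0.142). Aldh4a1 read 11.47, 11.05, 11.14 and 11.61 in 3bKI, against 12.13, 11.71, 12.11, 12.10 and 12.19 in 3aKO and 11.39 to 12.27 in wt (median 11.62), and it fell by 0.73 ± 0.14 against 3aKO (adjusted p = 0.0199). In 1KI, where its p against 3aKO was among the 3 lowest, Aldh4a1 read 11.74, 11.12, 10.35, 10.84 and 11.95, against 12.24, 11.80, 12.23, 12.17 and 12.26 in 3aKO. The change was -0.94 ± 0.27 (adjusted p = 0.231), with replicate 5 inside the 3aKO range.

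Of the 4 histidine enzymes, only Amdhd1 was called. Hal, Uroc1, Amdhd1 and Ftcd act in that order from histidine to glutamate. Amdhd1, the imidazolonepropionase, read 10.49, 10.14, 9.82 and 10.07 in 3bKI, against 11.02, 10.68, 10.57, 10.73 and 10.64 in 3aKO and 9.87 to 10.63 in wt (median 10.32). It fell by 0.60 ± 0.14 against 3aKO (adjusted p = 0.0318), while against wt the change was -0.18 ± 0.15 (adjusted p = 0.517) and the groups overlapped. A second, dimmer Amdhd1 probe set, tested among all probe sets, changed by -0.39 ± 0.12 against 3aKO and -0.06 ± 0.11 against wt. Neither change passed the threshold (limma, adjusted p = 0.0666 and 0.823). In 3aKO of run 1, Amdhd1 read 11.09, 10.77, 10.63, 10.80 and 10.73 against 9.99 to 10.70 in wt (median 10.37). That change was 0.42 ± 0.11 (adjusted p = 0.641), among the 3 of lowest p in 3aKO against wt. In 1KI it read 10.03, 10.30, 9.49, 9.19 and 10.19, below every 3aKO array, with a change of -0.97 ± 0.20 against 3aKO (adjusted p = 0.141) and -0.54 ± 0.19 against wt (adjusted p = 0.178). Of the list, only Amdhd1 and Ivd separated 1KI from 3aKO on every array, 2 of the 36 genes beside 1.96% of all genes. The other 3 histidine enzymes had changes in 3bKI between -0.24 and -0.05 against wt, by the probe sets followed. A second, dimmer Uroc1 probe set went the other way against wt, at 0.33 ± 0.29, and did not pass the test (limma, adjusted p = 0.565).

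All 6 genes of branched chain amino acid breakdown fell in 3bKI against 3aKO. Bckdha, Bckdhb and Dbt form the complex that commits the branched chain keto acids to oxidation. Bckdha read 11.17, 10.86, 10.84 and 11.07 in 3bKI, against 11.38, 11.30, 11.41, 11.61 and 11.63 in 3aKO, and it fell by 0.48 ± 0.10 (adjusted p = 0.0259). Bckdhb read 11.19, 10.83, 11.12 and 11.21 in 3bKI, against 11.63, 11.42, 11.68, 11.61 and 11.68 in 3aKO, and it fell by 0.52 ± 0.10 (adjusted p = 0.0202). Neither was called against wt, where the changes were -0.33 ± 0.10 and -0.38 ± 0.14 (adjusted p = 0.0920 and 0.144). Dbt, the core subunit of the complex, was called in both comparisons. It read 9.11, 9.64, 9.03 and 9.30 in 3bKI, against 9.54 to 10.06 in wt (median 9.88) and 9.75, 9.90, 9.99, 10.02 and 10.41 in 3aKO. Replicate 2 overlapped the lowest wt array. Dbt fell by 0.57 ± 0.13 against wt (adjusted p = 0.0435) and by 0.74 ± 0.15 against 3aKO (adjusted p = 0.0234).

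Ivd, the isovaleryl-CoA dehydrogenase of the leucine path, had the lowest p of the list in both 3bKI comparisons. It read 10.29, 10.12, 10.12 and 10.35 in 3bKI, against 10.57 to 10.94 in wt (median 10.68) and 10.84, 10.81, 11.09, 10.89 and 11.29 in 3aKO. The 4 tumours lay close together and below all 12 normal livers. It fell by 0.52 ± 0.09 against wt (adjusted p = 0.0250), or to 0.699 times the wt level, and by 0.76 ± 0.11 against 3aKO (adjusted p = 0.0120). A second Ivd probe set, tested among all probe sets, fell too, with changes of -0.94 ± 0.18 against wt and -1.32 ± 0.16 against 3aKO. In 1KI, Ivd read 10.82, 10.43, 9.59, 9.64 and 10.82, against 10.67 to 11.04 in wt (median 10.80) and 10.96, 10.90, 11.21, 10.97 and 11.40 in 3aKO. Replicates 1 and 5 were at the wt median, and the change was -0.57 ± 0.21 against wt (adjusted p = 0.194).

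Mccc1 and Mccc2, the subunits of the next enzyme of the leucine path, were called against 3aKO. Mccc2 read 9.67, 9.24, 9.32 and 9.23 in 3bKI, against 9.99, 9.87, 10.39, 9.90 and 10.31 in 3aKO, and it fell by 0.73 ± 0.14 (adjusted p = 0.0200). Its 3 probe sets had changes of -0.62, -0.69 and -0.73. Mccc1 read 9.30, 9.05, 8.90 and 9.23 in 3bKI, against 9.70, 9.27, 9.85, 9.52 and 9.79 in 3aKO, so that replicate 1 overlapped the lowest 3aKO array, and it fell by 0.50 ± 0.13 (adjusted p = 0.0452). Against wt the changes were -0.39 ± 0.13 for Mccc2 and -0.25 ± 0.11 for Mccc1 (adjusted p = 0.126 and 0.244). In 1KI, Mccc2 read 10.04, 9.54, 8.97, 9.31 and 9.72, against 10.03, 9.98, 10.49, 10.01 and 10.41 in 3aKO, a change of -0.67 ± 0.19 (adjusted p = 0.231).

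Pcca and Pccb form the propionyl-CoA carboxylase, where the paths of isoleucine, valine, methionine and threonine meet. Pccb read 10.11, 10.13, 10.06 and 10.13 in 3bKI, against 10.30 to 10.67 in wt (median 10.46) and 10.43, 10.42, 10.32, 10.44 and 10.40 in 3aKO. Its tumour values were the tightest of the called genes and lay below all normal livers. Pccb fell by 0.36 ± 0.08 against wt (adjusted p = 0.0378) and by 0.29 ± 0.06 against 3aKO (adjusted p = 0.0278). It also had the lowest p of 1KI against wt, where it read 10.42, 10.47, 10.07, 9.93 and 10.25 against 10.37 to 10.76 (median 10.55), a change of -0.32 ± 0.10 (adjusted p = 0.162). Pcca read 10.71, 10.67, 10.61 and 10.67 in 3bKI, against 11.03, 10.79, 11.12, 10.92 and 11.16 in 3aKO and 10.59 to 10.97 in wt (median 10.76). It fell by 0.34 ± 0.09 against 3aKO (adjusted p = 0.0435), with a change of -0.11 ± 0.09 against wt. A second, dim Pcca probe set, tested among all probe sets, went the other way and rose by 0.42 ± 0.10 against 3aKO (limma, adjusted p = 0.0339). Against wt the change of this probe set was 0.37 ± 0.10 (adjusted p = 0.0802). With the mean of both probe sets the change of Pcca against 3aKO was 0.04.

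Gldc, the decarboxylase of the glycine cleavage system, and Dmgdh and Sardh, which strip methyl groups from dimethylglycine and sarcosine, were not called. Their changes in 3bKI were between -0.38 and -0.21 against wt and between -0.58 and -0.43 against 3aKO. A second Sardh probe set, tested among all probe sets, changed by -0.74 ± 0.22 against wt and -1.03 ± 0.24 against 3aKO. The latter passed the threshold (limma, adjusted p = 0.0302), and the former did not (adjusted p = 0.0954). Every 3bKI array was below every 3aKO array for Dmgdh (-0.50 ± 0.14, adjusted p = 0.0570). The 4 genes called in both 3bKI comparisons were Aass, Dbt, Ivd and Pccb, which is 4 of the 5 called against wt and 4 of the 16 called against 3aKO.

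**Figure D2:**
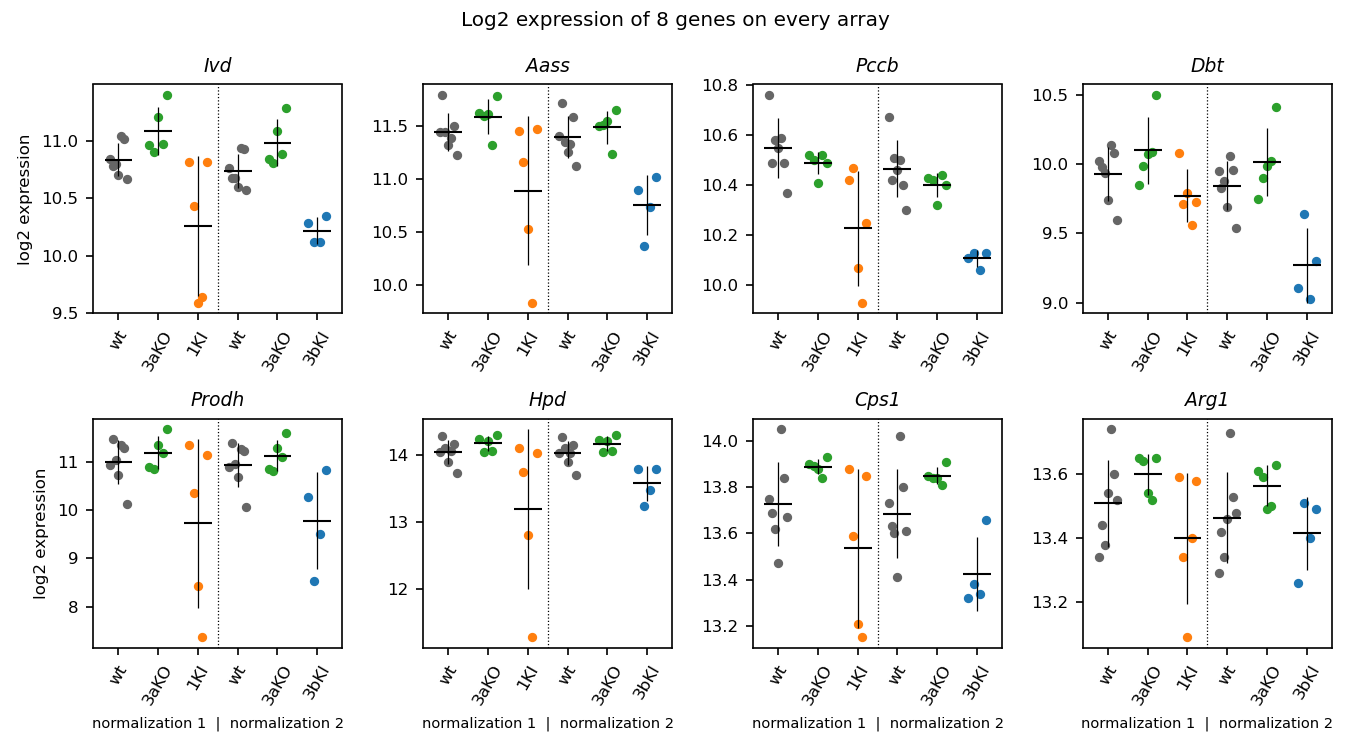
Log2 expression of 8 genes on every array, with a horizontal line at the group mean and a vertical line of 1 SD, for wt, 3aKO and 1KI in run 1 (left of the dotted line) and wt, 3aKO and 3bKI in run 2 (right). Ivd, Aass and Pccb in 3bKI lie below all wt and 3aKO points of their run, and in 1KI 2 of the 5 points drop far below the rest for Ivd, Aass, Prodh and Hpd.

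The tumours of 1KI were not alike. With each gene's mean over wt set to 0, the median shift of the 36 genes was 0.07, -0.14, -0.64, -0.88 and 0.06 in replicates 1 to 5. The wt arrays, each set against the mean of the other wt arrays here and in the shifts below, ranged from -0.23 to 0.15. Replicates 3 and 4 alone were below the wt arrays. In replicate 3, 6 genes were more than 1 below the wt mean, and in replicate 4 there were 16, with Prodh the lowest in both at -2.57 and -3.65. The 1KI arrays had a larger SD than wt for 32 of the 36 genes, beside 53.9% of all genes, and the median ratio of the SDs was 1.97, beside 1.06. In 3bKI and 3aKO the SD was larger than in wt for 21 and 12 of the 36, beside 48.4% and 36.8%. Without replicates 3 and 4 of 1KI, a setting chosen after the values were seen, the median change against wt was -0.02 with 20 of the 36 below 0, beside a median of -0.02 over all genes. Against 3aKO it was -0.17 with 35 of the 36 below 0, beside a median of -0.01.

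**Figure D3:**
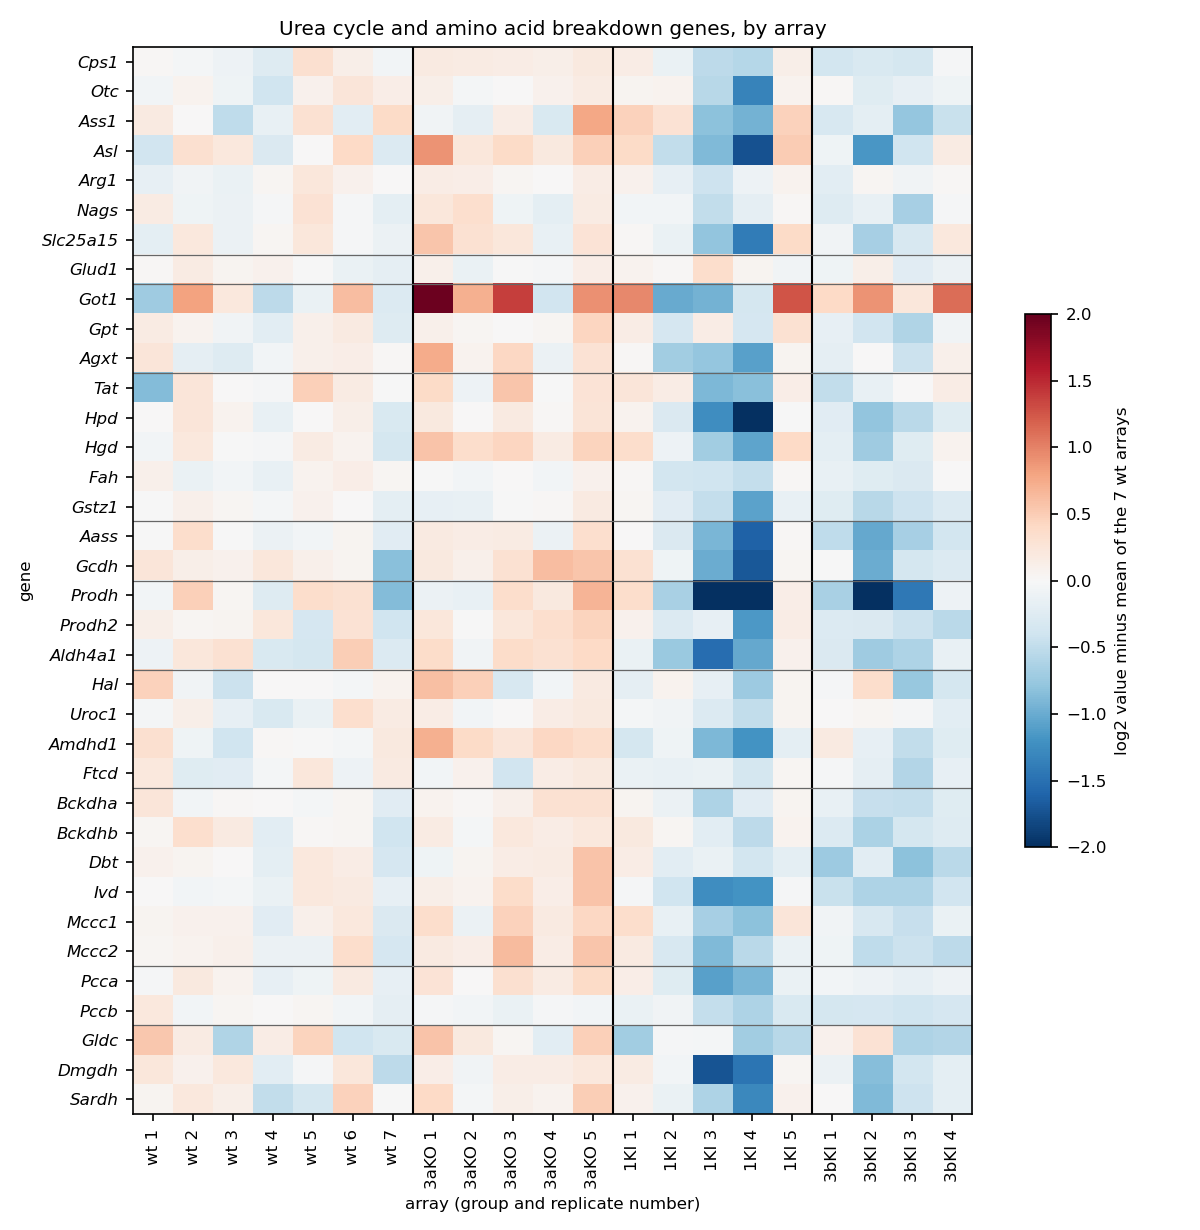
Log2 value of each of the 36 genes on each of the 21 arrays minus the mean of the 7 wt arrays of the same run, with columns split by group and rows split by role. Blue is below wt and red above, and the colours stop at -2 and 2. Replicates 3 and 4 of 1KI are blue for most rows, Got1 is red on many 3aKO and 3bKI arrays, and 28 to 34 of the 36 genes are below wt in each 3bKI column, with Prodh the deepest blue in replicates 2 and 3 at -2.41 and -1.44.

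Other gene lists also differed between the tumours. In 1KI replicates 3 and 4, 4 genes of hepatocytes around the central vein (Glul, Oat, Rhbg and Slc1a2) had median shifts of -1.84 and -2.79, while the 5 measured periportal genes, 4 of them in the urea cycle and the other Hal, had -0.52 and -0.73. The other 1KI arrays were at 0.70, 0.43 and 0.43 for the central vein genes. In 3bKI the central vein genes were below the wt range only in replicate 2, at -1.49. That array was the lowest of 3bKI for Prodh, Asl and Gcdh among others, and the highest for Arg1, Glud1 and Dbt among others. The median shift of the 36 genes was -0.17, -0.31, -0.42 and -0.18 in 3bKI replicates 1 to 4. It was lowest in replicate 3, where the central vein genes were at 0.06. Markers of dividing cells, 4 of 5 measured, had summed levels of 7.64, 7.75, 8.82, 9.20 and 8.37 in 1KI replicates 1 to 5 and of 6.97, 10.52, 8.78 and 7.50 in 3bKI replicates 1 to 4, against 6.67 to 7.54 in wt of run 1 and 6.48 to 7.34 in wt of run 2. The hepatocyte markers shifted by 0.15 and 0.14 in 1KI replicates 3 and 4, and in 3bKI by between -0.09 and 0.01. Replicate 5 of 1KI was high for the dividing cell markers and not low for the 36 genes. The 8 stellate cell and fibroblast markers had median shifts of 0.60 to 0.91 on the 5 1KI arrays, against -0.35 to 0.44 in wt. The macrophage markers were at -0.79 and -0.81 in 1KI replicates 3 and 4, below the lowest wt array at -0.52, and the endothelial markers were at 1.29 in replicate 4, above the highest wt array at 0.19. In 1KI against wt, Pdgfrb of the stellate list, Plvap of the endothelial list and Cd24a of the cholangiocyte list rose. The share of all genes that rose was 0.209%. These lists varied between the 1KI arrays. Cholangiocyte markers had median shifts of -0.04 to 1.03, against -0.31 to 0.33 in wt. Endothelial markers ranged from -0.19 to 1.29, against -0.14 to 0.19 in wt. The summed stellate level was 12.04 to 13.01, against 11.94 to 12.44 in wt. The 3′ minus 5′ actin difference (log2), which is higher in less intact RNA, was 0.91 and 0.95 in 1KI replicates 3 and 4 and 1.05 to 1.28 in the other 3, against 0.63 to 1.38 in wt. What part these lists and RNA quality had in the changes was not tested.

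**Figure D4:**
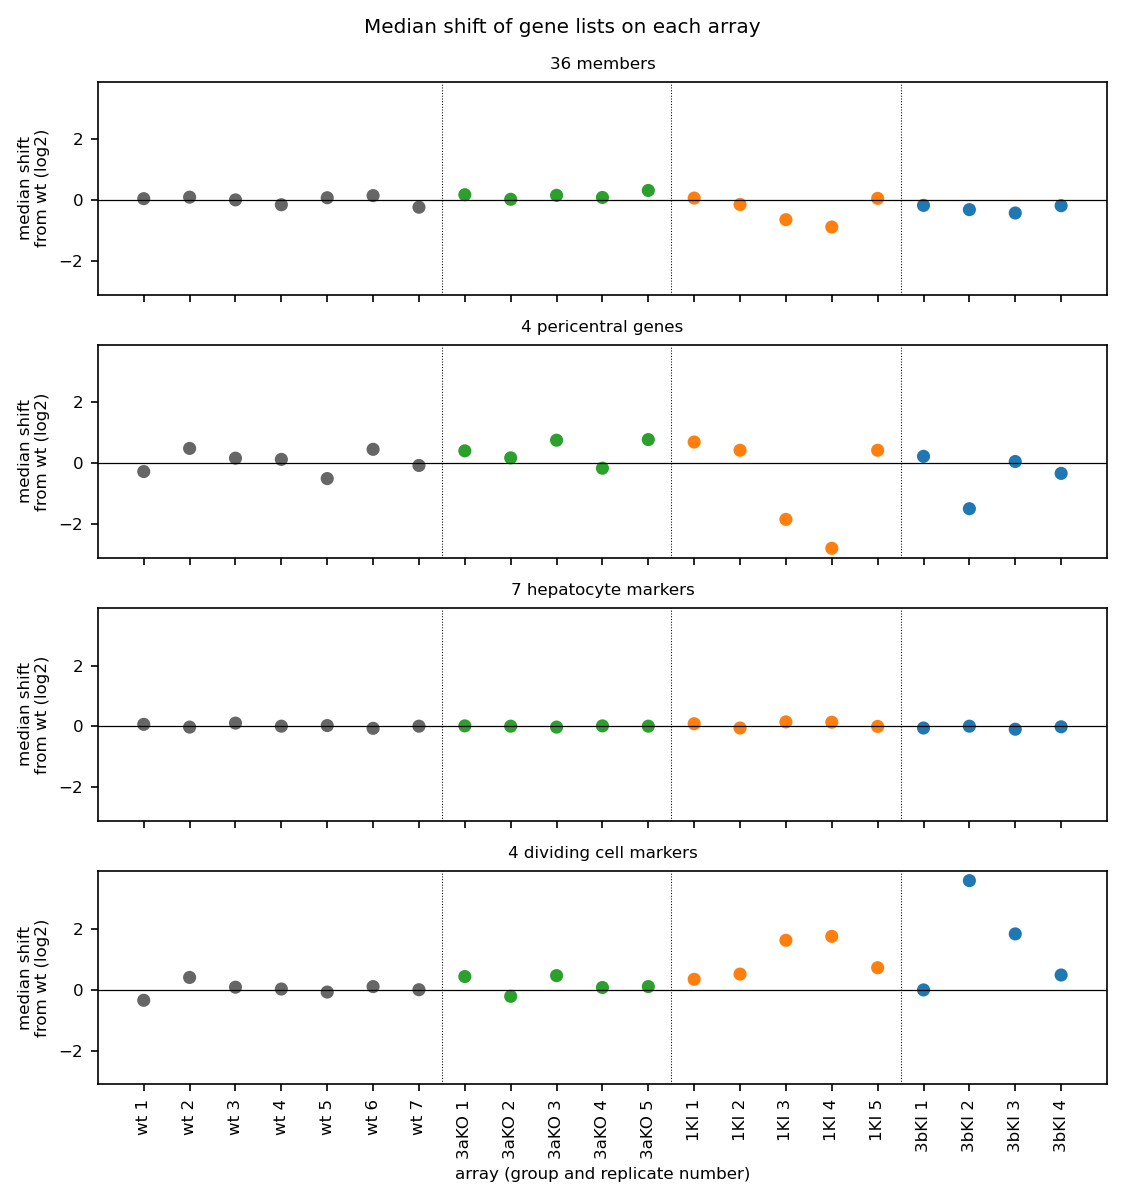
Median shift from the wt mean of the same run (log2) on each array, on 1 common scale, for the 36 genes, 4 genes of hepatocytes around the central vein, 7 hepatocyte markers and 4 markers of dividing cells. Each wt array was set against the mean of the other wt arrays. The 1KI replicates 3 and 4 are low for the first 2 lists at -0.64 and -0.88 and at -1.84 and -2.79, and the hepatocyte markers stay between -0.09 and 0.15 on all arrays.

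The low 1KI arrays were also male. For 27 of the 36 genes both 1KI females read above all 3 1KI males, beside 13.1% of all genes. In wt the females were above all males for 8 of the 36 and below for 3, beside 5.68% and 5.07% of all genes, and in 3aKO above for 16 and below for none, beside 12.3% and 13.4%. In wt the genes higher in females were Asl, Got1, Hpd, Aass, Aldh4a1, Mccc2, Pcca and Sardh, and those lower were the histidine enzymes Hal, Amdhd1 and Ftcd. Among females the median change of 1KI against wt was -0.01, and among males it was -0.45. Since 1KI replicates 3 and 4 are 2 of its 3 males, sex and these 2 arrays cannot be told apart.

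Sex weighs differently on 3bKI, which has no array read as male. Among females, 3 against 3, the median change of 3bKI was -0.27 against wt and -0.55 against 3aKO. Every 3bKI female read below every wt female for 18 of the 36 genes (9.81% of all genes) and below every 3aKO female for 31 of the 36 (13.8% of all genes). All 6 branched chain genes were among both counts. No gene of the list was called among females (limma, 3 against 3), with adjusted p = 0.0599 for Dbt against wt and 0.0626 for Aass against 3aKO, and 18 and 29 of the 36 had an unadjusted p under 0.05, beside 13.0% and 18.7% of all genes.

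Some markers of other cells and a sign of RNA quality also differed in 3bKI. Collagen-rich stellate cells and fibroblasts were followed through 8 markers, of which 3 (Col1a1, Col1a2 and Col3a1) rose in both 3bKI comparisons, by 1.21, 1.27 and 1.71 against wt, and their summed level was 12.83, 12.01, 13.00 and 13.11 in the 4 tumours and 11.88 to 12.38 in wt. Against 3aKO, 1 of 9 macrophage markers (Lyz2) and 1 of 3 B cell markers (Cd79a) rose as well, and 1 of 7 hepatocyte markers (Apob) fell by 1.24 ± 0.12. Of all genes, 2.92% rose and 6.27% fell in that comparison. As a list, the macrophage markers had a median shift from wt of 0.17 in 3bKI and 0.18 in 3aKO, with 3bKI replicate 3 at 1.61. For the B cell markers it was 0.44 and -0.09, and for the hepatocyte markers -0.03 and 0.01. The actin difference was 0.70 to 0.87 in 3bKI, 1.06 to 1.35 in 3aKO and 0.65 to 1.37 in wt of the same run. Their part in the changes was not tested.

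Among 46 measured genes of the same pathways outside the list, of 50 listed, 2 fell in 3bKI against wt and none rose, beside 0.978% and 1.09% of all genes. These were Acadsb, which oxidises the isoleucine skeleton, by 0.68 ± 0.12 (adjusted p = 0.0206), and Aadat, a transaminase of lysine and tryptophan breakdown, by 0.95 ± 0.22 (adjusted p = 0.0493). Against 3aKO, 13 of the 46 fell and 1 rose, beside 6.27% and 2.92% of all genes. Those of lowest p were Acadsb (-0.73 ± 0.10, adjusted p = 0.0100), Acad8 of the valine path (-0.41 ± 0.08, adjusted p = 0.0210), Dld, the subunit shared by the keto acid dehydrogenases (-0.44 ± 0.10, adjusted p = 0.0278), and Bcat2. Bcat2, the branched chain transaminase that liver hepatocytes hardly make, was the one that rose, by 1.01 ± 0.22 (adjusted p = 0.0256) from a dim 5.78 to 6.80. In 1KI and 3aKO none of the 46 was called in any comparison, and at an unadjusted p under 0.05 there were 3 in 3aKO against wt, 11 in 1KI against wt and 12 in 1KI against 3aKO, beside 7.46%, 19.0% and 14.0% of all genes.

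Regulators of these genes were read from a list of 12, of which 11 were measured. In 3bKI against 3aKO 2 of the 11 fell, beside 6.27% of all genes. These were Gcgr, the glucagon receptor (-0.60 ± 0.12, adjusted p = 0.0218), and Cebpa, a transcription factor of hepatocyte metabolism (-0.43 ± 0.09, adjusted p = 0.0270). Against wt none passed the test and 4 had an unadjusted p under 0.05, beside 20.8% of all genes, with the lowest p for Gcgr (-0.51 ± 0.14, adjusted p = 0.0820), Klf15, which drives amino acid breakdown genes in fasting (-0.61 ± 0.18, adjusted p = 0.0892), and Nr3c1, the glucocorticoid receptor (-0.34 ± 0.12, adjusted p = 0.129). Hnf4a read 12.54 on average in wt and 12.20 in 3bKI, a change of -0.33 ± 0.12 that did not pass the test (adjusted p = 0.142). None of the 11 was called in 1KI or in 3aKO against wt, and at an unadjusted p under 0.05 there were 4 in each 1KI comparison and 1 in 3aKO, beside 19.0%, 14.0% and 7.46% of all genes.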

How the data were processed

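The authors deposited log2 values for every probe set from 2 separate normalization runs, per the labels. The method is not given in the sources used here. Per the labels' protocols, total RNA was extracted with Trizol and 5 ug gave the biotin-labelled cRNA. Of 45101 probe sets, 34945 carried 1 gene symbol. Each of 18193 genes was represented by its brightest probe set (mean of all columns), and 12 of the 36 genes described had several. Each comparison was fitted on its 2 groups by moderated linear models (limma 3.58.1, R 4.3.3), and two-sided p-values were adjusted by Benjamini-Hochberg over all genes, with a threshold of 0.05. The scripts were tested on simulated data. The number of arrays limits the precision. The replicate numbers did not pair the arrays, since same-numbered arrays correlated between -0.47 and 0.443. The members and gene lists were chosen with earlier results of these data known. Values per array were given for the urea cycle genes, for the genes called in a comparison and, where under 3 were called, for the 3 of lowest p, and Glud1, Gpt, Got1 and Prodh were added after their values were seen. The fit without 1KI replicates 3 and 4 and those within 1 sex were also chosen after seeing the data. Alternatives were quantile normalization, centring, a filter on dim genes, the mean of probe sets, all 3 groups of a run, eBayes with trend and robust, sex as a covariate, the replicate number as a block and leaving out each array.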

Additional observations from a re-analysis of the deposited data

Results flagged for a closer look

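On 6 of 144 sets of values, 1 array stood apart from the others of its group by Dixon's criterion, where chance flags about 1 in 20, or 7.20. In wt, Tat was low in replicate 1 at 12.06 (next lowest 12.90) and Gcdh was low in replicate 7 at 10.19 (next 11.07). In 3aKO, Gpt was high in replicate 5 at 12.65 (next 12.31), and Pccb was low in replicate 3 at 10.41 (next 10.49). Replicate 2 of 3aKO was low for Aldh4a1 at 11.80 (next 12.17) and for Bckdhb at 11.51 (next 11.70).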

How the results depend on the processing

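The count of members lower in 3bKI against wt was 5. It was 2 with quantile normalization, 0 with the replicate block, 0 with sex as a covariate and 0 among females, and leaving out 1 array gave 0 to 6. It was 0 without wt replicate 1 or without 3bKI replicate 3, 1 without wt replicate 2, 3, 4 or 5 or without 3bKI replicate 2 or 4, and 3 without wt replicate 6 or without 3bKI replicate 1. Against 3aKO it was 16. It was 7 with quantile normalization, 0 with the replicate block, 2 with sex as a covariate and 0 among females, and leaving out 1 array gave 6 to 17, with 9 without 3aKO replicate 4, 7 without 3aKO replicate 5 and 6 without 3bKI replicate 3. With the block, 14 and 25 members had an unadjusted p under 0.05, beside 25.2% and 27.1% of all genes. Centring left 6 and 21 members lower, and the fit of all 3 groups 6 and 20. The median change of 3bKI against 3aKO was -0.34 with quantile normalization. For 1KI against 3aKO, the fit of all 3 groups called 1 member lower, and the median was -0.17 without 1KI replicates 3 and 4 and -0.14 among females. The cause of these differences was not tested.

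The change of a gene turned its sign under at least 1 alternative for 9 of the 36 genes in 3aKO against wt, 22 in 1KI against wt, 4 in 1KI against 3aKO, 6 in 3bKI against wt and 1 in 3bKI against 3aKO. In 1KI against wt these include Agxt and Fah, 2 genes with an unadjusted p under 0.05. In 1KI against wt without replicates 3 and 4, the changes were 0.05 for Cps1, 0.06 for Otc, 0.41 for Ass1, 0.13 for Asl and 0.09 for Slc25a15. Among females they were 0.15 for Cps1, 0.71 for Ass1, 0.13 for Asl, 0.12 for Arg1, 0.05 for Nags, 0.18 for Slc25a15, 0.14 for Agxt, 0.05 for Fah and -0.03 for Glud1. Leaving out 1 array, Ass1 ranged from -0.25 to 0.10, above 0 without 1KI replicate 3 (0.07) or 4. Against 3aKO it ranged from -0.33 to 0.02, above 0 without 1KI replicate 4, and it turned to 0.33 without both and to 0.18 among females. In 3aKO against wt, Ass1 turned to -0.005 without wt replicate 3, to -0.09 without 3aKO replicate 5 and to -0.41 among males, and Otc ranged from -0.002 (without wt replicate 4) to 0.11. In 3bKI against wt, Otc turned to 0.004 with quantile normalization and 0.01 with the block, and Arg1 to 0.05 and 0.04. Leaving out 1 array, Arg1 ranged from -0.08 to 0.002, the latter without 3bKI replicate 1. Tat turned to 0.04 with the block, and Amdhd1 to 0.003 with sex as a covariate and to 0.003 among females. With the mean of its probe sets, Pcca turned to 0.13 against wt and to 0.04 against 3aKO.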
